A study of Mus musculus with 2 samples.

Results

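The 6 genes described here are Nkx2-1, Nkx2-2, Nkx2-4, Nkx2-9, Nkx6-1 and Nkx6-2, homeobox genes of the ventral neural tube, taken by symbol from a table of 45777 mouse genes. They were selected on their difference in transcript level between the 2 libraries compared here, so those differences are a description of the members and carry no test. E14 is a male mouse embryonic stem cell (ESC) line. E14-Sox2TA/WT cells were derived from that line by CRISPR/Cas9 editing, outgrowth of individual cells and selection of mutant clones, and in them 1 allele of Sox2 encodes alanine in place of threonine at residue 258 (T258A), a site of O-GlcNAc modification, while the other allele is wild type. Both kinds of cells were grown with Matrigel under the skin of BALB/c-nu mice, 3 per group, and the teratomas were taken 14 days later. Poly(A) RNA was sequenced for 1 library per group, and it is not stated whether a library holds 1 teratoma or several. It is not stated whether the injected mutant cells were 1 clone. Host blood and stroma contribute RNA to both libraries, and the files do not separate the alleles of Sox2. With 1 library per group, the differences below compare 2 libraries and have no replicate check.

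In the neural tube, Sonic hedgehog from the notochord and floor plate sets up a ventral to dorsal series of progenitor domains, each marked by its own homeodomain factors. Nkx2-2 and Nkx2-9 mark the most ventral progenitors beside the floor plate. Nkx6-1 covers a wider ventral band that includes motor neuron progenitors, and Nkx6-2 is a related ventral factor. In the forebrain, Nkx2-1 is needed for the medial ganglionic eminence, the source of many cortical interneurons, and for the hypothalamus. Several of these factors also work outside the neural tube, Nkx2-1 in lung and thyroid and Nkx2-2 and Nkx6-1 in pancreatic endocrine cells.

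The members fall into the NK2 and NK6 classes by their homeobox, the stretch of 180 bases that encodes the DNA-binding homeodomain. In GENCODE transcripts, Nkx2-1 and Nkx2-4 shared 90% of homeobox bases, Nkx2-2 and Nkx2-9 shared 82.8%, and Nkx6-1 and Nkx6-2 shared 79.4%. Between the classes the shared part ran from 51.1% to 56.7%. Despite this likeness, 0 stretches of 50 bases in the transcript of any member occurred in a transcript of another member, so reads of that length can be told apart among them. Such stretches were shared with the opposite-strand gene Nkx2-2os for 8.04% of Nkx2-2 and with Inpp5a for 10.7% of Nkx6-2. Whether the counting used strand is not given in the sources used here.

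The libraries had 50529171 (E14) and 49030281 (E14-Sox2TA/WT) reads counted on genes. Levels are given as TPM, read counts corrected for transcript length and rescaled to the same sum in each library. Paired values below give the E14 library first and the E14-Sox2TA/WT library after it. Genes that reached a TPM of 1 in either library are called expressed. Ranges in parentheses are exact (Clopper-Pearson) 95% bounds from the number of reads, and they cover counting error only. As a check of the labelled tissue, each of 10 marker sets for tissues a teratoma can hold had a summed TPM of 35.1 or more in each library. The markers at 0 reads were Matn1 of cartilage and Cdx2 of gut endoderm, both in the E14 library. Most of the gut endoderm sum was Foxa2, which also marks the floor plate. All 4 markers of pluripotent cells were over 2-fold higher in the E14-Sox2TA/WT library, with summed TPM of 60.4 and 1649. All 5 neuronal markers were over 2-fold lower, with sums of 2445 and 351, and the 4 neural progenitor markers summed to 2875 and 900. Reads of 4 Y-linked genes numbered 5453 and 0. A 0 allows at most 0.0567% of the E14 level, in cells derived from a male line. Mitochondrial genes, 13 in all, held 4.99% and 9.22% of TPM. The part of any of these in the values below was not tested.

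Transcripts of the Nkx members were fewer in the E14-Sox2TA/WT library for 5 of the 6 genes. The summed TPM of the 6 was 183 and 31.6, which is 5.79-fold lower. Without Nkx2-1 the sums were 109 and 30.8, or 3.53-fold lower, so the difference was not carried by Nkx2-1 alone. By the rule of the study's methods, a fold above 2 where either library reached a TPM of 10, 4 members were lower and 0 higher. Over all 11578 genes that met the TPM minimum, 18.7% were lower and 10.8% higher. These 4 members, Nkx2-1, Nkx2-2, Nkx6-1 and Nkx6-2, met the minimum in the E14 library only, and Nkx2-4 and Nkx2-9 met it in neither. Among expressed genes, which include all 6 members, 5 members were lower and 0 higher, beside 18.9% lower and 19.3% higher over all 18558 of them. Since the members were chosen from this contrast, nothing is read from their counts against these shares. The log2 ratio was taken after adding 1 to both TPM values, and its median was -2.34 over the 6 members and -0.058 over all expressed genes.

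**Figure D1:**
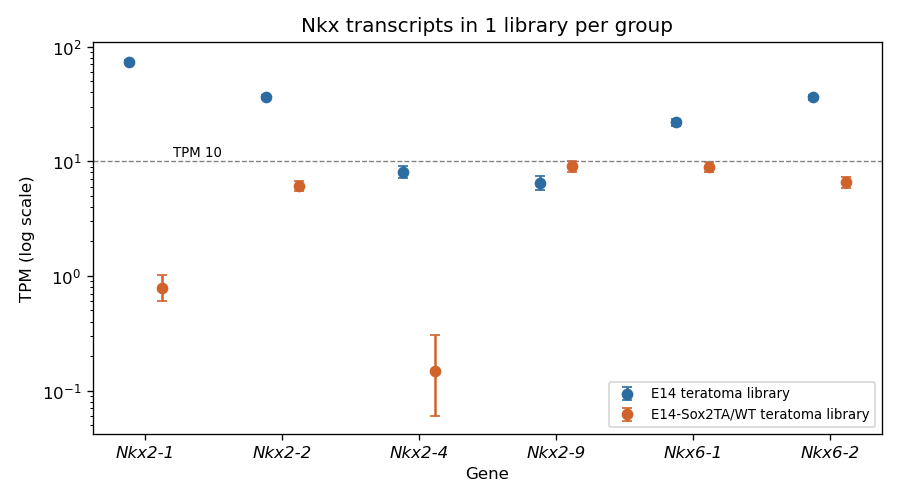
TPM on a log scale of the 6 Nkx genes in the E14 (blue) and E14-Sox2TA/WT (orange) teratoma libraries, 1 library per group, with 95% intervals that cover counting error only; the dashed line is a TPM of 10. Nkx2-1 went from the highest level of the 6, at 74.2, to 0.789, while Nkx2-9 alone was higher in the E14-Sox2TA/WT library, at 6.53 and 9.06.

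Nkx2-1, the forebrain, lung and thyroid member, had 4912 and 61 reads. Its TPM was 74.2 (72.1 to 76.3) and 0.789 (0.603 to 1.01). This made it 94.0-fold lower (73.0 to 123), with a log2 ratio of -5.39, rank 2 from the lowest among the 18558 expressed genes. In the E14 library its level was above that of 94.9% of all genes in the table.

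Nkx2-4, the closest relative of Nkx2-1 and a gene of the developing hypothalamus, had 281 and 7 reads. Its TPM was 8.10 (7.18 to 9.11) and 0.148 (0.0596 to 0.306), or 54.6-fold lower (26.2 to 137). The counting interval of this fold overlapped that of Nkx2-1, whereas the folds of the other 4 members lay below both.

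Nkx2-2, which specifies the most ventral neural progenitors and also acts in oligodendrocyte precursors, had 2162 and 401 reads and a TPM of 36.3 (34.8 to 37.8) and 6.11 (5.52 to 6.73). It was 5.94-fold lower (5.34 to 6.63). Nkx2-9, which shares the domain of Nkx2-2 in the early neural tube, had 193 and 306 reads and a TPM of 6.53 (5.64 to 7.52) and 9.06 (8.07 to 10.1). It was 1.39-fold higher (1.16 to 1.67), short of the 2-fold rule, and 1.39- to 1.63-fold higher over the scalings tried. These neighbours of the same progenitor domain therefore differed in opposite directions. Nkx2-2 had 5.56 times the TPM of Nkx2-9 in the former library and 0.674 times in the latter.

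Nkx6-1, which acts in motor neuron progenitors and in pancreatic beta cells, had 951 and 435 reads. Its TPM was 21.8 (20.5 to 23.3) and 8.95 (8.12 to 9.83), or 2.44-fold lower (2.18 to 2.74). It was the member nearest to the 2-fold threshold. Nkx6-2, the NK6 relative of Nkx6-1 that is later expressed in oligodendrocytes, had 1646 and 329 reads. Its TPM was 36.1 (34.4 to 37.9) and 6.57 (5.88 to 7.32), or 5.49-fold lower (4.88 to 6.20). The intervals of Nkx6-2 and Nkx2-2 overlapped in each library and in the fold, and the ratio of Nkx2-2 to Nkx6-2 was 1.004 and 0.929. By contrast, Nkx6-2 had 1.65 times the TPM of Nkx6-1 in teratomas derived from E14 cells and 0.735 times in those from E14-Sox2TA/WT cells.

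The order of the members thus differed between the libraries. In the E14 library it ran from Nkx2-1 through Nkx2-2 and Nkx6-2, which did not differ beyond counting error, to Nkx6-1, Nkx2-4 and Nkx2-9. The intervals of Nkx2-4 and Nkx2-9 overlapped there. In the E14-Sox2TA/WT library Nkx2-9 and Nkx6-1 stood highest and did not differ beyond counting error, followed by Nkx6-2 and Nkx2-2 with overlapping intervals, then Nkx2-1 and Nkx2-4. Nkx2-1 made up 40.5% of the members' summed TPM in the first library and 2.49% in the second, and Nkx2-9 made up 3.57% and 28.6%. The ratio of Nkx2-1 to Nkx2-9 was 11.4 in the former and 0.0871 in the latter.

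**Figure D2:**
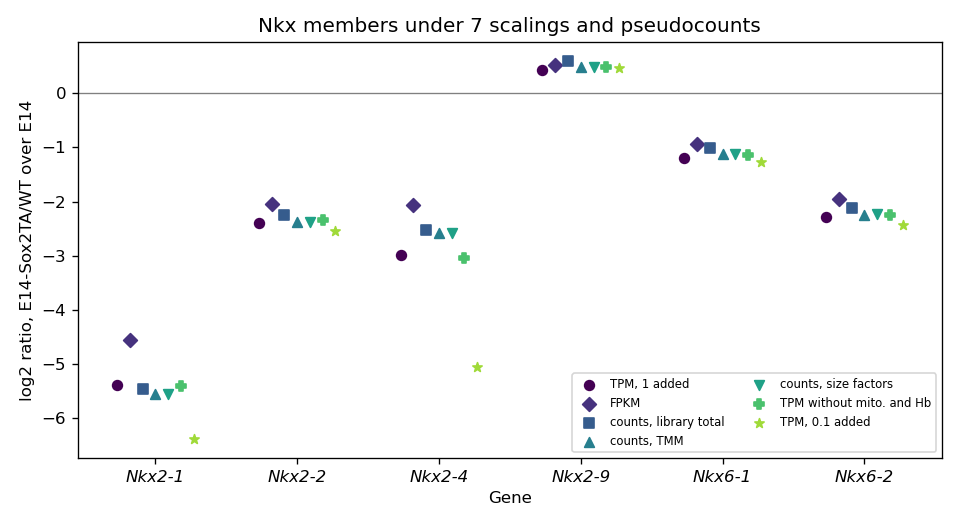
The log2 ratio (E14-Sox2TA/WT over E14) of each Nkx gene under 7 scalings and pseudocounts, each a marker; Nkx2-9 lay above 0 under each of them, between 0.42 and 0.59, and the other 5 genes lay below 0. Nkx2-1 ranged from -6.38 to -4.56 and Nkx2-4 from -5.05 to -2.06, the widest ranges of the 6.

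The neural markers given above differed by amounts that can be set beside the members. The summed TPM of the neuronal markers was 6.97-fold lower and that of the neural progenitor markers 3.20-fold lower. Nkx2-2 and Nkx6-2 lay between these values, Nkx2-1 and Nkx2-4 lay beyond both, and Nkx6-1 lay short of both. Most of each sum was 1 gene, Tubb3 or Fabp7. The median log2 ratio was -2.18 for the neuronal and -1.36 for the progenitor markers. By that measure Nkx2-2 (-2.39) and Nkx6-2 (-2.29) lay beyond both, so their place depends on the summary used. In bulk RNA, fewer cells of a type and less RNA per cell cannot be told apart.

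Of the 8 other Nkx genes in the table, 2 were expressed, 1 over 2-fold lower and 1 over 2-fold higher. Nkx2-3, a gut and spleen factor of the NK2 class, had 480 and 38 reads and a TPM of 9.43 and 0.669. Nkx1-1, Nkx1-2, Nkx2-5, Nkx2-6, Nkx3-2 and Nkx6-3 had at most 31 reads in either library. The cardiac factor Nkx2-5, for example, had 22 and 12.

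Levels of the hedgehog pathway, upstream of the ventral Nkx domains, did not share the members' difference. Of its 13 genes, all expressed, 0 were over 2-fold lower and 0 over 2-fold higher. The median log2 ratio was 0.18 (95% order-statistic interval -0.63 to 0.38). Such intervals, here and below, describe the spread among the listed genes, which are not replicates of a group. The ligand Shh had a TPM of 45.6 and 59.5, and the target and effector Gli1 had 21.2 and 24.9. Both were higher under each scaling tried, by 1.31- to 1.498-fold for Shh and 1.18- to 1.36-fold for Gli1. Other targets of the pathway had lower values, the receptor Ptch1 with 90.9 and 58.3 and the inhibitor Hhip with 7.24 and 3.67, which is 1.97-fold lower, and the signal transducer Smo had 76.1 and 40.4. With FPKM or with counts scaled by library total, 1 gene was over 2-fold higher, the co-receptor Cdon, with a TPM of 5.85 and 10.8.

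Of 10 floor plate genes, 3 were over 2-fold lower and 0 higher, with a median of -0.36 (-1.57 to 0.50). Among the lower genes were Spon1, with a TPM of 129 and 48.2, and the repellent Slit1 with 71.7 and 20.4. The axon guidance cue Ntn1 had 172 and 113. Foxa2, which defines the floor plate and also marks endoderm, had 35.3 and 57.2. Gut endoderm markers, of which Foxa2 is 1, summed to 37.9 and 72.4. Most of both sums was Foxa2 itself, so they are no separate guide to its source. The tissue that gave the Foxa2 and Shh transcripts cannot be told apart in these files.

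Progenitor factors of the other ventral domains were lower as a group. All 11 had lower values, 6 of them over 2-fold and 0 over 2-fold higher, and the median was -1.13 (-2.26 to -0.17). Olig2, which marks motor neuron progenitors, had a TPM of 50.2 and 9.38, and its neighbour in the oligodendrocyte lineage Olig1 had 88.2 and 17.6. Dbx1, a factor of intermediate progenitors dorsal to the Nkx6-1 border, had 31.4 and 7.03. With FPKM or library totals, 10 of the 11 were lower in value, and the 6 over 2-fold stood at the same number.

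**Figure D3:**
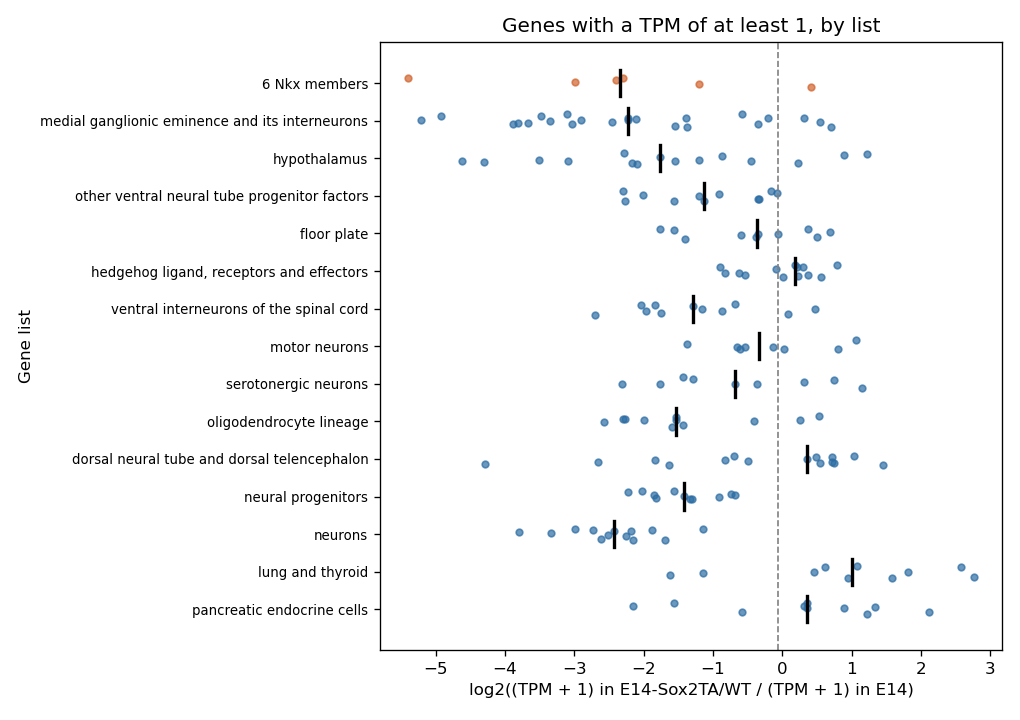
Log2 ratio (1 added to each TPM) of expressed genes, those that reach a TPM of 1, in the members and in 14 gene lists, each point a gene, with the list median as a black bar and the median of all genes, -0.058, as a dashed line. The medians of the 6 Nkx genes (-2.34), of the medial ganglionic eminence list (-2.22) and of the neuron list (-2.43) lay lowest, and the hedgehog list was centred near 0, at 0.18.

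Most genes listed for the forebrain territories of Nkx2-1 were lower with it. They were not alone among forebrain genes. Lhx2 and Emx2, from the list of dorsal genes under other observations, were also over 2-fold lower. In that dorsal list 6 of 15 expressed genes were over 2-fold lower and 3 over 2-fold higher. In the medial ganglionic eminence list, which holds its transcription factors and interneuron genes, 18 of 23 genes were over 2-fold lower and 1 over 2-fold higher, with a median of -2.22 (-3.35 to -1.38). Lhx6 and Lhx8, transcription factors that act downstream of Nkx2-1 there, had a TPM of 21.0 and 0.730, and of 23.5 and 0.739. Dlx1 and Dlx2, which specify GABAergic interneurons, had 71.9 and 0.969, and 67.0 and 1.24. Sst, the somatostatin of a class of interneurons, had 86.6 and 17.8, and Zic1 had 75.8 and 13.0. The higher gene was Pvalb, with 0.659 and 1.71 (16 reads in the E14 library). Lhx6 and Lhx8 were named for their known place below Nkx2-1 after their values were seen.

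In the hypothalamus list, 11 of the 15 expressed genes were over 2-fold lower and 1 over 2-fold higher, with a median of -1.77 (-3.09 to -0.45). The early eye and hypothalamus factors stood lowest. Six6 had a TPM of 33.8 and 0.419, Six3 had 23.9 and 0.267, and Rax had 16.9 and 0.581. The higher gene was Pomc, a precursor of pituitary and hypothalamic peptides, with 5.29 and 13.7. Six6, Six3 and Rax, like Nkx2-4, were below a TPM of 1 in the E14-Sox2TA/WT library. Under the other scalings 11 or 12 genes of this list were over 2-fold lower and 2 over 2-fold higher.

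Lung and thyroid genes, of the endodermal territories of Nkx2-1, did not share its direction. Of 10 expressed genes, 2 were over 2-fold lower and 6 over 2-fold higher, and the median was 1.01 (-1.15 to 2.57), or 1.26 with the 3 genes at 0 reads in the E14 library set to their lower bound. The surfactant gene Sftpd had 0 and 206 reads, at least 70.8-fold higher against the 3 reads that a count of 0 allows. Scgb3a1, a secretoglobin of the airway, had 0 and 69 reads, at least 23.7-fold higher. Hhex, a factor of foregut derivatives including the thyroid, had a TPM of 1.49 and 6.44. The lower genes were Abca3, a lipid transporter of alveolar cells, with 26.4 and 11.4, and the thyroid factor Foxe1 with 10.5 and 2.72. With a minimum TPM of 10, these 2 were all that remained, and the median was -1.39.

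Genes listed for neurons that arise from the ventral domains were mostly lower for interneurons and mixed for the others. Of 11 ventral interneuron genes, 8 were over 2-fold lower and 0 higher (median -1.28, -2.04 to 0.077). Lhx5 had a TPM of 27.8 and 3.44, Lhx1 had 21.0 and 5.55, and Uncx had 19.0 and 4.12. Sox14 had 163 and 3 reads. Of 8 motor neuron genes, 3 were over 2-fold lower and 1 higher (median -0.34, -1.37 to 1.06). This split depended on the scaling, with 1 lower and 2 higher on FPKM or library totals, and 2 and 2 under the other 4 scalings tried. Isl1, which is needed for motor neurons, had 19.7 and 7.04, and the other lower genes were Lhx4 and Slc18a3. Phox2a, of the visceral motor neurons that arise from Nkx2-2 progenitors in the hindbrain, had 1.06 and 3.30. Of 9 serotonergic genes, which mark a later product of those same progenitors, 4 were over 2-fold lower and 1 higher (median -0.68, -1.76 to 0.75). The serotonergic factor Fev had 13.0 and 1.83 and the serotonin transporter Slc6a4 had 11.7 and 2.74, and Gata3 and Tph2 were the other lower genes. The higher gene was Maob, with 1.19 and 3.86. Ddc and Slc18a2, shared by all monoamine cells, had 33.7 and 57.4, and 9.56 and 12.2.

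Oligodendrocyte genes, of a lineage in which Nkx2-2 and Nkx6-2 act, were over 2-fold lower in 8 of 11 cases and higher in 0, with a median of -1.54 (-2.30 to 0.26). The myelin genes Mbp and Cnp had a TPM of 112 and 27.4, and of 107 and 36.3. Gpr17, a receptor of maturing precursors, had 28.7 and 4.01. Pancreatic endocrine genes, of the lineage that needs Nkx2-2 and Nkx6-1, were over 2-fold lower in 2 of 10 cases and higher in 4 (median 0.36, -1.57 to 1.34). Insm1, which is also expressed in neural cells, was among the lower genes, at 28.8 and 5.69. The higher genes were Gcg, Iapp, Mafa and Ghrl, and Ghrl, which encodes ghrelin, had 0 and 52 reads, at least 17.9-fold higher. The insulin genes Ins1 and Ins2 had 0 reads in both libraries. With a minimum TPM of 10, the median of this list was -1.57.

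General neural genes were lower as well, so ventral lists were not the only ones to differ. All 13 neuron genes were over 2-fold lower (median -2.43, -2.99 to -1.89), or 12 with FPKM or library totals. Tubb3, a neuronal tubulin, had 1722 and 170, Gap43 had 474 and 106, Stmn2 had 451 and 121, and Mapt, which encodes tau, had 265 and 18.2. Of 11 neural progenitor genes, 8 were over 2-fold lower and 0 higher (median -1.42, -2.03 to -0.74). Fabp7 had 2497 and 708, Vim had 1530 and 914, Sox1 had 48.3 and 9.55, and the Notch target Hes5 had 52.8 and 12.2. Sox2, the edited gene, had 246 and 130, which is 1.89-fold lower and short of the 2-fold rule.

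The NK2 members lie in 2 pairs on the genome. Nkx2-1 (chr12:56531935-56536908) and Nkx2-9 (chr12:56611389-56613569) are 74.5 kb apart, and Nkx2-4 (chr2:147083337-147085439) and Nkx2-2 (chr2:147176485-147195434) are 91.0 kb apart. Nkx6-1 (chr5:101659184-101664711) and Nkx6-2 (chr7:139579376-139582797) stand alone. All 6 lie on the minus strand of GRCm38 (mm10). Members of the chromosome 12 pair went in opposite directions, and those of the chromosome 2 pair were both lower. None of the 4 chromosomes differed as a whole to a like extent, with medians from -0.17 to -0.048 over their expressed genes.

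Next to Nkx2-1, the noncoding gene Sfta3-ps on its 3′ side had 1224 and 19 reads and a TPM of 22.2 and 0.298, or 74.6-fold lower (47.6 to 124), a fold whose interval overlapped that of Nkx2-1. On the other side, Gm26973, on the opposite strand and overlapping Nkx2-9, had 44 and 9 reads. The genes farther out did not share this. Pax9 had a TPM of 3.96 and 4.52, and Mbip had 46.2 and 33.7. Among 13 expressed genes within 1 Mb of Nkx2-1, 2 were over 2-fold lower, Sfta3-ps and Gm26973, and 2 higher, Gm20016 and Gm16246, with a median of 0.12.

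Beside Nkx2-4, Xrn2, which encodes a widely used exonuclease, had a TPM of 79.4 and 68.4, and the predicted gene Gm34889 had 61 and 0 reads. Among 14 expressed genes within 1 Mb of Nkx2-2, 6 were over 2-fold lower, Nkx2-4 and Insm1 among them, and 2 higher, with a median of -0.61. That window also holds Foxa2. The genes that overlap Nkx2-2 on the other strand, Nkx2-2os and 6430503K07Rik, had 27 and 6, and 29 and 13 reads, few beside the 2162 and 401 of Nkx2-2. Around Nkx6-1, 1 of 10 genes was over 2-fold lower, Wdfy3 with a TPM of 20.9 and 8.45, and 3 higher, with a median of 0.52, and its nearest rows, Gm42132 and 9430085M18Rik, had at most 13 reads. Around Nkx6-2, 8 of 27 genes were over 2-fold lower and 4 higher, with a median of -0.38. Inpp5a, which overlaps the end of Nkx6-2 on the other strand, had 1923 and 1719 reads, and Cfap46 had 906 and 427.

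**Figure D4:**
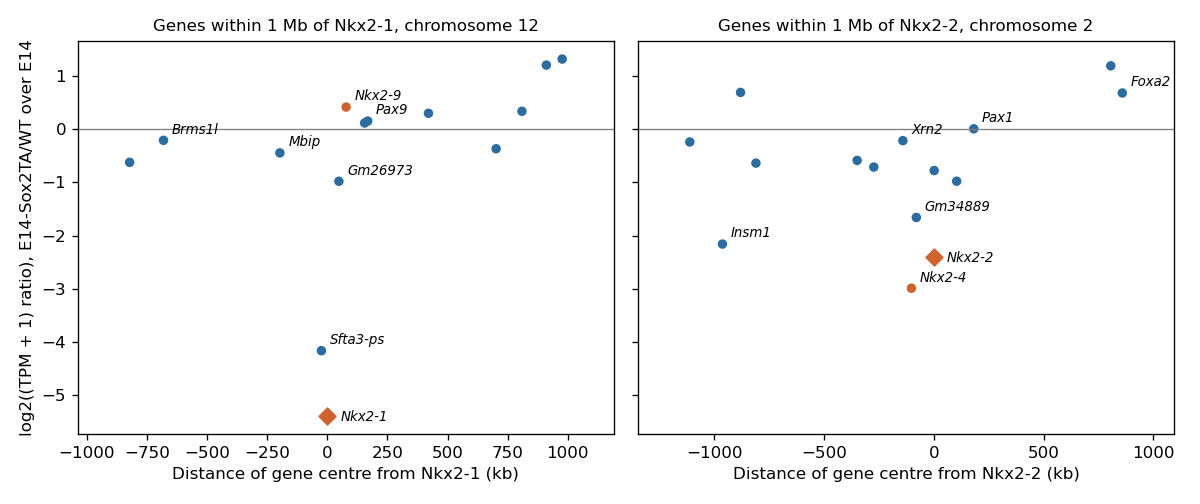
Log2 ratio (1 added to each TPM) of expressed genes within 1 Mb of Nkx2-1 (left) and Nkx2-2 (right), by the distance of the gene centre in kb; diamonds are Nkx2-1 and Nkx2-2 and orange points their Nkx neighbours. Beside Nkx2-1, at -5.39, Sfta3-ps stood at -4.16 and Nkx2-9, 74.5 kb away, at 0.42, while Nkx2-4 and Nkx2-2 stood at -2.99 and -2.39.

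The promoter windows of the members, 250 bases before and 50 after the RefSeq start, were searched on both strands for SOX, GLI and NK2 motifs. With 6 windows, the counts are not read against the shares over all windows. The SOX core ACAAAG was in 0 of the 6 windows and in 18.7% of all 32851 windows. The GLI consensus was in 0 of the 6 and in 0.253% of all windows. The NK2 core CAAGTG was found in the window of Nkx2-2 and in 13.6% of all windows. CpG dinucleotides numbered from 12 for Nkx2-1 to 40 for Nkx6-1, above the median of 7 over all windows. The window of Nkx2-2 (upstream part chr2:147186403-147186652) lay inside the gene span given above, and the upstream end of that span was not searched. Absence of a motif says only that these letters are not in these windows.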

How the data were processed

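The authors deposited whole-number read counts per gene, not normalized, for 1 E14 and 1 E14-Sox2TA/WT teratoma library. The authors also deposited FPKM (reads scaled by transcript length and library size) and deposited TPM (rescaled to a fixed sum). The submitters' processing notes list bcl2fastq 2.20.0, Trimmomatic, HISAT2 2.1.0 and StringTie 2.1.3b. Genes are NCBI identifiers on mm10, and 45675 of 45777 matched RefSeq on the same build. The labels name teratoma as the tissue, while their extraction text speaks of an ESC line.

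TPM ratios were computed per gene. With 1 library per group no p-value was computed. Intervals are Clopper-Pearson intervals (95%) of the counts, rescaled onto the TPM ratio, and a count of 0 allows up to 3 reads. Reads numbered 50529171 and 49030281. PCR duplicates were not told apart by molecular identifiers, so intervals cover counting error only. The log2 ratio is on the scale of log2(TPM + 1), which understates differences of low genes. Medians of the gene lists have order-statistic intervals. These describe the spread among the genes of a list and give no error of a difference between groups.

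The members and lists were chosen with earlier results of these data known. Named genes were all members and other Nkx genes, the 3 most abundant and the 2 most different genes of each list, the rows beside each member, and those with the nearest log2 ratio. Some with few reads are not named, and some genes and sequences are not reported here. Other genes named with values (such as Gli1, Foxa2, Lhx6, Lhx8, Pax9 and those named to complete a short count) were chosen after their values were seen. Homeoboxes were located in GENCODE vM21 coding sequences by the motif of their recognition helix. Alternatives covered the pseudocount, TPM minimum, fold, FPKM, and counts scaled by library total, edgeR's TMM or median-of-ratios size factors. The counting interval was tested on simulated data drawn from the counting model that it assumes. Its coverage was scored only for genes with many reads, so low counts such as those of Nkx2-4 were not checked. Software was R 4.3.3 with edgeR 4.0.16, and Python 3.11.15 with matplotlib 3.10.9, scipy 1.17.1, pandas 2.3.3 and numpy 2.4.6.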

Additional observations from a re-analysis of the deposited data

How the results depend on the processing

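No paired analysis was possible because each group holds a single library, and for the same reason no replicate could be left out. Of 165 alternative values of the member and list results, 160 kept their direction within a set bound, and 5 did not. The bound was the interval of a median, or a 1.5-fold change of a count. The intervals of short lists are wide, and that of the 6 members is their whole range (-5.39 to 0.42). Staying inside such an interval therefore says little. The motor neuron median, for example, was -0.34 and became -1.37 with a TPM of at least 10, inside its interval. The hedgehog median was 0.38 with counts scaled by library total, and the hypothalamus median was -3.22 with a pseudocount of 0.1. With a TPM of at least 10, the medians turned negative for lung and thyroid (-1.39), pancreatic endocrine cells (-1.57) and the dorsal list (-1.17), a setting that keeps fewer genes. The members called lower numbered 4 under each scaling, 5 with a TPM of at least 1 or with no minimum, and 3, without Nkx6-1, at a fold above 3. They also numbered 3, again without Nkx6-1, when the whole counting interval had to lie beyond 2-fold. That interval was taken on counts scaled by library total, where Nkx6-1 was 2.12-fold lower, and not on the TPM ratio, whose printed interval lies beyond 2-fold. The members called higher numbered 0 in all of these. Of 64 alternatives for single members and for counts over all genes, 22 moved beyond counting error or 1.5 times the count. The counts over all genes moved so only where the TPM minimum or the fold was changed. Single members did so only with FPKM, scaled counts or another pseudocount.

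Over all genes, 2167 were lower and 1253 higher, or 63.4% lower. This split was 1655 and 1583 (51.1%) with FPKM, and 1634 and 1578 (50.9%) with library totals. It was 3508 and 3585 with a TPM of at least 1, 6015 and 9156 with no minimum, 3742 and 2109 above 1.5-fold, and 1015 and 663 above 3-fold. The scaling moved the median log2 ratio of all genes from -0.058 on TPM to 0.11 on FPKM or library totals. Depth limits Nkx2-4 most, with 7 reads in the E14-Sox2TA/WT library.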

Other observations

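Dorsal neural tube and dorsal telencephalon genes, which lie outside the ventral domains, went both ways. Of 15 expressed genes, 6 were over 2-fold lower and 3 over 2-fold higher, and their median log2 ratio was 0.36 (-1.63 to 0.72). The forebrain factors Lhx2, with a TPM of 50.2 (E14) and 1.63 (E14-Sox2TA/WT), and Emx2, with 9.50 and 0.667, were lower. The proneural factor Neurog2 had 26.3 and 6.65. The higher genes were Lbx1, Msx2 and Wnt3a, each at a TPM of at most 4.05 in either library. Msx1, a roof plate factor also expressed in mesenchyme, had 9.19 and 15.8.

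The genes nearest to each member in log2 ratio were compared over the 2 libraries, so likeness here means a similar ratio and nothing more. For Nkx2-1 only Dlx1as lay within 0.1, with a TPM of 52.0 and 0.284, and its reads cannot be told apart from those of Dlx1 where they overlap if the counting did not use strand. Islr2, with 152 and 2.92, and Dlx1 came next. For Nkx2-2, 97 genes lay within 0.1, led by Ano8, Chst10 and Gpr162. For Nkx6-2, 116 did, led by Reep1, Nlgn3 and Ncam1, and for Nkx6-1, 427 did, led by Slc9a5, Rab11fip3 and Rbm4b.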
